A study of Mus musculus with 12 samples.

Results

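The 10 genes described here encode mouse dual-specificity phosphatases that act on MAP kinases or are grouped with those that do. They are Dusp1, Dusp2, Dusp3, Dusp4, Dusp5, Dusp6, Dusp8, Dusp10, Dusp14 and Dusp16, chosen by symbol, and they make up 10 of the 53796 genes in the deposited table. Liver RNA was sequenced in 12 libraries, in a study of ischemia (an interruption of the blood supply), and the libraries fall into 4 groups of 3. These are livers of mice of genotype RIPK1 D138N (RIPK1_D138N), mice of genotype TNFR1/2 KO (TNFR12_KO), wild-type mice (WT) and wild-type mice of the Sham group (Sham). RIPK1 is a kinase that acts below the receptors of the cytokine TNF, and D138N is a substitution that removes its kinase activity. TNFR1 and TNFR2 are those receptors. A sham label stands on the Sham libraries alone, and the series title and design text are the ground for treating both mutants and WT as operated with ischemia. Age, time after surgery and whether repeats came from separate animals are not given in the sources used here, so p-values measure only the spread between these libraries, which may be technical. Sham livers of the mutant genotypes were not analysed here. Genotype effects present before ischemia and those that arise after it therefore cannot be told apart.

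MAP kinases (ERK, JNK and p38) are switched on when a kinase above them phosphorylates a threonine and a tyrosine in their activation loop. Dual-specificity phosphatases remove both phosphates. Transcription of several of these genes is itself driven by MAP kinase signaling, which makes them a negative feedback on the pathway and often immediate early genes. Dusp1, Dusp2, Dusp4 and Dusp5 encode inducible nuclear enzymes, Dusp6 a cytosolic enzyme selective for ERK, and Dusp8, Dusp10 and Dusp16 enzymes that prefer JNK and p38. Dusp3 and Dusp14 encode small atypical enzymes that lack the kinase-binding domain of the others. In liver, Dusp1 is known for its part in regeneration, metabolism and the restraint of inflammatory signaling.

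The libraries correlated at 0.974 to 0.993 within groups and 0.924 to 0.982 between groups (Pearson's r of log2 values across genes), and no pair of libraries held identical values. Values are FPKM, fragments scaled to transcript length and to sequencing depth. Depth is not given, but the steps between low FPKM values put the deepest library at 5.42 times the shallowest. On that scale the WT libraries had relative depths of 1.37, 2.43 and 1.61, above every other library. Sham libraries b and c were the shallowest, at 0.450 each. Depth thus differed along with group. The FPKM of all genes summed to 441296 to 518580 in the mutant libraries, 288934 to 303514 in WT and 649373 to 750501 in Sham. RIPK1_D138N replicates 2 and 3 held Xist at 20.1 and 23.4 FPKM, against at most 0.0824 FPKM in any other library, so that group is not uniform. The libraries labelled TNFR12_KO still listed Tnfrsf1a at 15.3 to 21.9 FPKM and Tnfrsf1b at 3.96 to 9.31 FPKM. In WT these genes stood at 32.3 to 38.1 and 8.13 to 10.2 FPKM. In RIPK1_D138N they stood at 18.86 to 20.98 and 5.04 to 6.04 FPKM, within the TNFR12_KO ranges. The lower Tnfrsf1a against WT was thus shared by both mutants and not particular to TNFR12_KO. A value per gene does not check a partial deletion, and the level of Ripk1 does not check a point mutation.

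RefSeq promoter sequences (GRCm38.p6) were matched for 9 of the 10 members, and Dusp4 had no entry. They are shown for Dusp1, the most abundant member, and for its neighbour in level Dusp6. Dusp5 and Dusp8 are shown as members that were high in WT and hold the serum response element or the full cAMP response element. The bases just after the printed Dusp8 sequence were found in no GENCODE M21 transcript of the gene. The windows lie upstream of the RefSeq start and hold no GENCODE M21 exon base of the gene, although those of Dusp1 and Dusp8 fall in introns of longer M21 transcripts. They are written 5′ to 3′ on the strand of the gene. Capitals mark matches to the cAMP response element TGACGTCA, its core TGACG, the hypoxia response core ACGTG or the serum response element (SRE), on either strand. Matches can overlap each other, as where ACGTG falls on both strands of CACGTG in Dusp1 or where CACGTCA in Dusp5 holds both cores.
Dusp1 (chr17:26508520-26508722, minus strand): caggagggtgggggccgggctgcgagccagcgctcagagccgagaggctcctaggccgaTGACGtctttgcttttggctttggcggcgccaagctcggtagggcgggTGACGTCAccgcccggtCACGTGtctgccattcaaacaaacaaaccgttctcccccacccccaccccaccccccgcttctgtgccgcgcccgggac
Dusp6 (chr10:99262981-99263230, plus strand): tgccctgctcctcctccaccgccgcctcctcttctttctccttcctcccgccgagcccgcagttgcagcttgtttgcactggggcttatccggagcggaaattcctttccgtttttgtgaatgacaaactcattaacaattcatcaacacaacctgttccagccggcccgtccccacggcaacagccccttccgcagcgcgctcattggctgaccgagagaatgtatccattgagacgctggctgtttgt
Dusp5 (chr19:53528895-53529108, plus strand): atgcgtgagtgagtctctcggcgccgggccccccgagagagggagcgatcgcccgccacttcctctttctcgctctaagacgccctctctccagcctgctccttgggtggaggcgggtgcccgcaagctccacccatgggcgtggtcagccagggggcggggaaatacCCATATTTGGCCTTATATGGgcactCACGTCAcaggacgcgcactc
Dusp8 (chr7:142095285-142095534, minus strand): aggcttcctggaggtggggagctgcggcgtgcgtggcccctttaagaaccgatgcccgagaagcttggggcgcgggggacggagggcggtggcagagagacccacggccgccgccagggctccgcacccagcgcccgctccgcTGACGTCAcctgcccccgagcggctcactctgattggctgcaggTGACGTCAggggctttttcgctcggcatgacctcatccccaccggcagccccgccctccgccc

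Dusp1 held 1 full cAMP response element, beginning at position -143 from the RefSeq start, and Dusp8 held 2. Of all 32841 promoter windows of 250 bases, 1.55% held the full element and 17.8% the core. Dusp5 held 2 matches to the SRE, the element bound by serum response factor below ERK, which 1.47% of windows held. The hypoxia core was in the windows of Dusp1, Dusp2, Dusp3 and Dusp5, against 16.6% of all windows. Dusp16 held the core TGACG alone. None of the searched motifs, which also included AP-1 (TGANTCA, 6.75% of windows), the NF-κB motif (3.90%) and TATAAA (12.4%), was found in the windows of Dusp6, Dusp10 or Dusp14. In the Dusp14 window only the first 27 bases lie ahead of an annotated M21 exon of the gene. The matches did not divide the members by profile: Dusp1 and Dusp8 both held full elements, and Dusp6 and Dusp10 held none. They describe letters in 1 window and show no binding.

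The members fell into visibly different profiles across the groups. Dusp4, Dusp5, Dusp8, Dusp10 and Dusp16 were high in WT and low in the other 3 groups, although Dusp5 in both mutants and Dusp4 in TNFR12_KO also stood above Sham. Dusp1 and Dusp6 were higher in all 3 ischemia groups than in Sham, and their means were highest in TNFR12_KO. Dusp14 and the scarce Dusp2 had their highest means in TNFR12_KO as well, and Dusp3 had its highest mean in Sham.

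**Figure D1:**
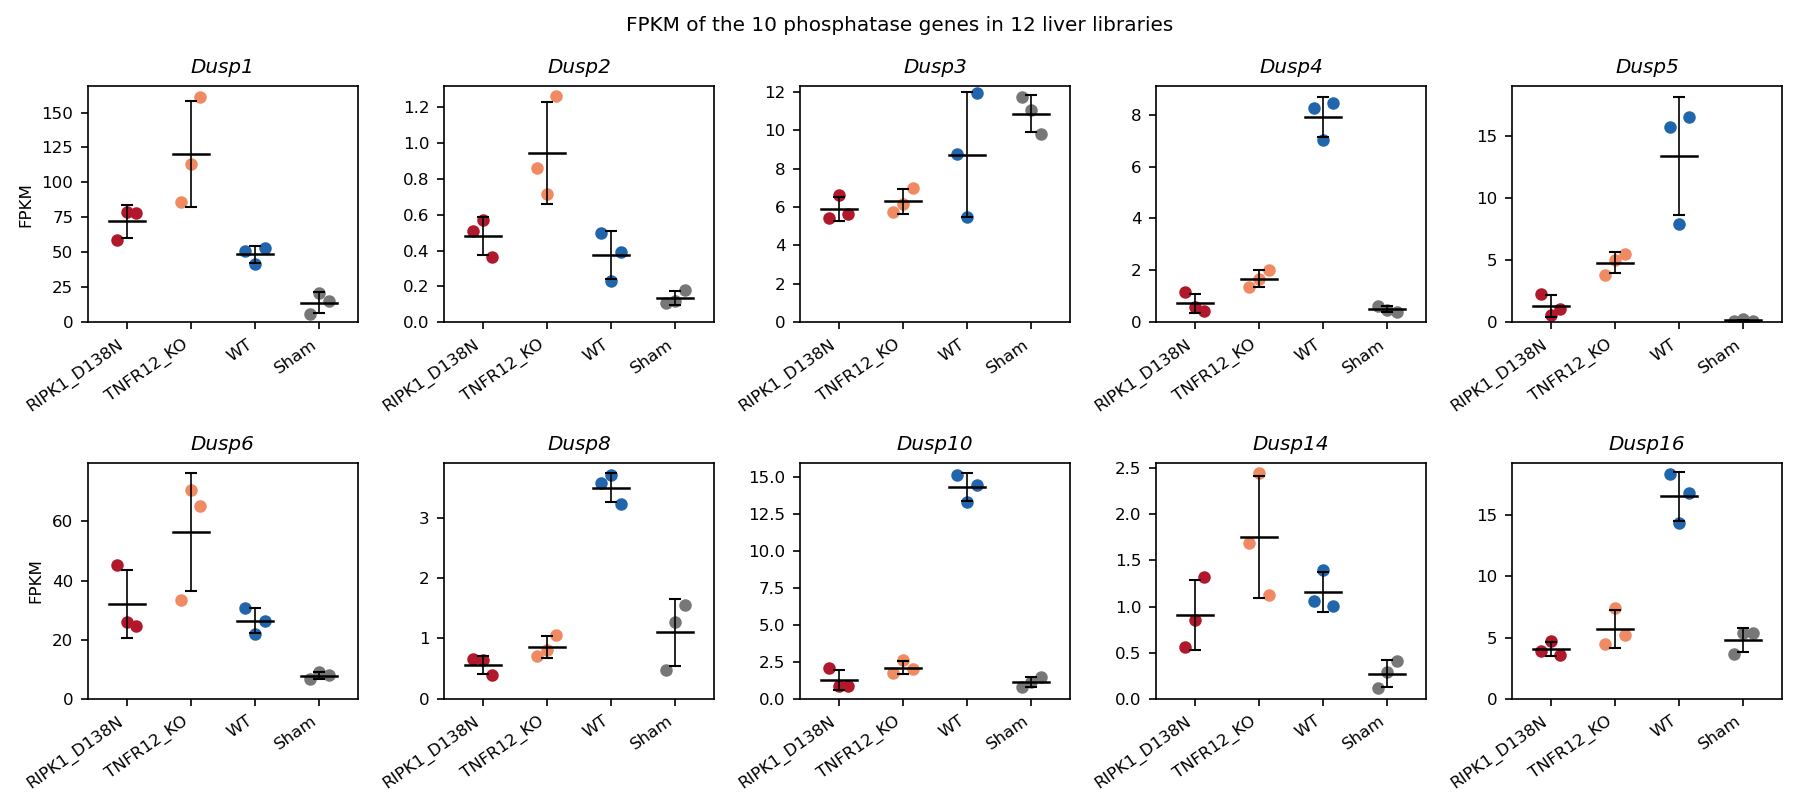
FPKM of each of the 10 phosphatase genes (y axis, linear, from 0) in RIPK1_D138N, TNFR12_KO, WT and Sham; points are libraries, long bars the mean and whiskers the SD of 3. Dusp10 sits between 13.3 and 15.2 FPKM in WT and at 2.61 FPKM or less in every other library, while Dusp1 is highest in TNFR12_KO.

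The inducible nuclear enzymes came first among the members in abundance through Dusp1, which encodes MKP-1, an enzyme that acts on p38, JNK and ERK (chr17:26505590-26508519, minus strand). Dusp1 read 58.5, 79.2 and 78.5 FPKM in RIPK1_D138N, 85.9, 113.5 and 161.2 FPKM in TNFR12_KO, 50.8, 41.5 and 53.1 FPKM in WT, and 5.90, 20.9 and 15.2 FPKM in Sham. All 3 groups of the ischemia arm lay above Sham with no overlap, and every library of either mutant lay above every WT library. The level in WT averaged 48.5 ± 6.13 FPKM against 14.0 ± 7.56 FPKM in Sham (mean ± SD, n = 3 each), a ratio of 3.47 and a difference of 1.87 on the log2(FPKM + 1) scale (SE 0.353, limma adjusted p = 0.00059). Dusp1 rose in TNFR12_KO against WT (1.25, SE 0.353, adjusted p = 0.0107), but this call was lost after quantile normalization (0.41, adjusted p = 0.369). In RIPK1_D138N against WT the difference of 0.56 did not pass (SE 0.353, adjusted p = 0.204), its sign turned after quantile normalization (-0.32), and it passed when the libraries of these groups were fitted alone (0.56, adjusted p = 0.0306). The mutants' own difference, -0.70 for RIPK1_D138N against TNFR12_KO, did not pass (95% confidence interval -1.46 to 0.07, adjusted p = 0.465).

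Dusp4, which encodes the nuclear phosphatase MKP-2 (chr8:34807297-34819894, plus strand), was high in the WT libraries alone. It read 1.15, 0.581 and 0.439 FPKM in RIPK1_D138N, 1.35, 1.68 and 2.03 FPKM in TNFR12_KO, 8.27, 7.02 and 8.45 FPKM in WT, and 0.622, 0.461 and 0.395 FPKM in Sham. The lowest WT library stood above the highest library of every other group, and the RIPK1_D138N and Sham ranges overlapped. Dusp4 rose in WT against Sham at a ratio of means of 16.1 (log2 difference 2.58, SE 0.177, adjusted p = 2.52e-07). It fell in RIPK1_D138N against WT by 2.39 (SE 0.177, adjusted p = 8.89e-07) and in TNFR12_KO against WT by 1.73 (SE 0.177, adjusted p = 7.68e-06). Dusp4 was also higher in TNFR12_KO than in Sham (0.84, SE 0.177, adjusted p = 0.00472), while RIPK1_D138N against Sham did not pass (0.19, 95% confidence interval -0.20 to 0.57, adjusted p = 0.446).

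Dusp5 encodes a nuclear phosphatase selective for ERK (chr19:53529109-53542431, plus strand), and its promoter carries the SRE matches printed above. It read 2.29, 0.599 and 1.10 FPKM in RIPK1_D138N, 3.84, 5.02 and 5.51 FPKM in TNFR12_KO, 15.7, 7.94 and 16.5 FPKM in WT, and 0.113, 0.221 and 0.110 FPKM in Sham. The 4 groups did not overlap and stood in the order WT, TNFR12_KO, RIPK1_D138N and Sham. The Sham values rest on an estimated 6.93, 5.94 and 2.97 fragments, so the ratio of 90.4 between the WT and Sham means is imprecise, and fragment counts without molecular identifiers cover counting error only.

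On the log2 scale Dusp5 rose by 3.59 in WT against Sham, the widest difference among the tested members (SE 0.284, adjusted p = 6.90e-07). It fell in RIPK1_D138N against WT by 2.63 (SE 0.284, adjusted p = 1.0e-05) and in TNFR12_KO against WT by 1.26 (SE 0.284, adjusted p = 0.00279). Dusp5 was the single member called between the mutants, at 1.33 ± 0.868 FPKM in RIPK1_D138N against 4.79 ± 0.861 FPKM in TNFR12_KO (-1.37, SE 0.284, adjusted p = 0.0460). That call was close to the threshold, and only Xist-positive libraries of RIPK1_D138N entered the alternative that kept it. It held in 1 of the 15 alternatives run, the fit without RIPK1_D138N replicate 1 (adjusted p = 0.00299), and the adjusted p over all 15 ranged from 0.00299 to 0.634.

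Dusp2, which encodes the inducible nuclear phosphatase PAC-1 of immune cells (chr2:127336159-127338376, plus strand), reached 1 FPKM in 1 library and was not tested in the main fit. It read 0.510, 0.572 and 0.362 FPKM in RIPK1_D138N, 0.860, 0.715 and 1.26 FPKM in TNFR12_KO, 0.501, 0.231 and 0.393 FPKM in WT, and 0.105, 0.119 and 0.178 FPKM in Sham. TNFR12_KO stood above the other groups and Sham below them, with RIPK1_D138N and WT overlapping. With the filter lowered to 0.1 FPKM, Dusp2 was higher in TNFR12_KO than in WT (0.50, SE 0.122, adjusted p = 0.00701) and than in Sham (0.77, SE 0.122, adjusted p = 0.00142). RIPK1_D138N also passed against Sham there (0.38, SE 0.122, adjusted p = 0.0417), but not with no filter (adjusted p = 0.0660). The Sham values rest on an estimated 4.19, 2.09 and 3.14 fragments.

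Dusp6, which encodes the cytosolic ERK phosphatase MKP-3 (chr10:99263231-99267489, plus strand), was the second most abundant member in all 3 ischemia groups. It read 45.4, 26.0 and 24.6 FPKM in RIPK1_D138N, 33.6, 70.6 and 65.1 FPKM in TNFR12_KO, 30.8, 22.1 and 26.5 FPKM in WT, and 6.72, 8.88 and 7.96 FPKM in Sham. Sham lay below all others. The TNFR12_KO libraries lay above WT. RIPK1_D138N overlapped with both, with WT through its replicates 2 and 3 and with TNFR12_KO through its replicate 1.

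Dusp6 rose in WT against Sham at a ratio of means of 3.37 (1.63, SE 0.287, adjusted p = 0.000353). In TNFR12_KO against WT it rose by 1.01 (SE 0.287, adjusted p = 0.0114), a call that was lost after quantile normalization (0.37, adjusted p = 0.267) and without TNFR12_KO replicate 2 (0.81, adjusted p = 0.0549). RIPK1_D138N against WT did not pass (0.22, 95% confidence interval -0.40 to 0.85, adjusted p = 0.534), and the sign turned without RIPK1_D138N replicate 1 (-0.05) and after quantile normalization (-0.35). Against Sham it rose in both mutants, by 1.85 in RIPK1_D138N (SE 0.287, adjusted p = 0.000689) and by 2.64 in TNFR12_KO (SE 0.287, adjusted p = 6.45e-05).

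The genes of the enzymes that prefer JNK and p38 were, like Dusp4, highest in WT. Dusp10, which encodes MKP-5 (chr1:184013302-184075636, plus strand), read 2.05, 0.839 and 0.880 FPKM in RIPK1_D138N, 1.74, 2.61 and 1.99 FPKM in TNFR12_KO, 15.2, 13.3 and 14.5 FPKM in WT, and 0.822, 1.13 and 1.48 FPKM in Sham. WT stood apart from all other libraries, and the RIPK1_D138N and Sham ranges overlapped. Dusp10 rose in WT against Sham at a ratio of 12.5 (2.85, SE 0.209, adjusted p = 3.85e-07). It fell in RIPK1_D138N against WT by 2.80, its mean being 11.4 times lower (SE 0.209, adjusted p = 9.12e-07), and in TNFR12_KO against WT by 2.31, or 6.78 times lower (SE 0.209, adjusted p = 3.46e-06). Neither mutant passed against Sham, with 0.04 in RIPK1_D138N (95% confidence interval -0.41 to 0.50) and 0.54 in TNFR12_KO (0.09 to 0.99, adjusted p = 0.0750). The difference in TNFR12_KO was called under median-of-ratios scaling (0.66, adjusted p = 0.0385), 1 of 13 alternatives (adjusted p 0.0385 to 0.204).

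Dusp16, which encodes the JNK phosphatase MKP-7 (chr6:134715468-134792625, minus strand), was present at a moderate level in Sham as well. It read 3.89, 4.71 and 3.59 FPKM in RIPK1_D138N, 4.48, 7.44 and 5.20 FPKM in TNFR12_KO, 18.4, 14.4 and 16.8 FPKM in WT, and 3.69, 5.39 and 5.35 FPKM in Sham. Both mutants overlapped with Sham, and WT lay above everything else. Dusp16 rose by 1.60 in WT against Sham (SE 0.197, adjusted p = 2.03e-05) and fell by 1.79 in RIPK1_D138N against WT (SE 0.197, adjusted p = 1.12e-05) and by 1.40 in TNFR12_KO against WT (SE 0.197, adjusted p = 8.59e-05). Against Sham it did not pass in RIPK1_D138N (95% confidence interval -0.62 to 0.24) or TNFR12_KO (-0.23 to 0.62).

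Dusp8, which encodes a phosphatase of JNK and p38 best known from brain and heart (chr7:142079490-142095843, minus strand), was the scarcest of these 3, and its promoter carries the pair of cAMP response elements printed above. It read 0.658, 0.647 and 0.394 FPKM in RIPK1_D138N, 0.702, 0.809 and 1.05 FPKM in TNFR12_KO, 3.57, 3.70 and 3.22 FPKM in WT, and 0.476, 1.26 and 1.55 FPKM in Sham. The WT libraries again lay above all others, and Sham overlapped with both mutants. Dusp8 rose by 1.14 in WT against Sham (SE 0.195, adjusted p = 0.00028) and fell by 1.52 in RIPK1_D138N against WT (SE 0.195, adjusted p = 3.69e-05) and by 1.28 in TNFR12_KO against WT (SE 0.195, adjusted p = 0.000163).

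The genes of the atypical enzymes did not share a profile. Dusp3, which encodes VHR, a phosphatase of ERK and JNK (chr11:101971143-101987013, minus strand), read 5.43, 6.61 and 5.65 FPKM in RIPK1_D138N, 5.73, 6.17 and 6.99 FPKM in TNFR12_KO, 8.76, 5.47 and 11.9 FPKM in WT, and 11.7, 11.0 and 9.81 FPKM in Sham. The WT libraries spread across the range of all the others, and both mutants lay below Sham without overlap. WT against Sham did not pass (-0.34, 95% confidence interval -0.81 to 0.13, adjusted p = 0.194), but passed without WT library c (-0.57, adjusted p = 0.0312) and turned in sign under median-of-ratios scaling (0.06) and after quantile normalization (0.12). Against WT, RIPK1_D138N (-0.44, adjusted p = 0.103) and TNFR12_KO (-0.36, adjusted p = 0.188) did not pass, and RIPK1_D138N passed without WT library b (-0.71, adjusted p = 0.00550) and under median-of-ratios scaling (-0.57, adjusted p = 0.0273), as did TNFR12_KO (-0.63 and -0.55). Dusp3 fell against Sham by 0.78 in RIPK1_D138N (SE 0.216, adjusted p = 0.0168) and by 0.70 in TNFR12_KO (SE 0.216, adjusted p = 0.0319), but both calls were lost under median-of-ratios scaling (adjusted p = 0.0864 and 0.101) and after quantile normalization (adjusted p = 0.153 and 0.166). The call in RIPK1_D138N held in 10 of 14 alternatives, and that in TNFR12_KO in only 5 of 13. The median of all tested genes itself lay at -0.22 and -0.18 in these comparisons.

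Dusp14, which encodes MKP-6, first described in T cells (chr11:84048041-84069261, minus strand), read 0.566, 0.851 and 1.32 FPKM in RIPK1_D138N, 1.69, 2.45 and 1.13 FPKM in TNFR12_KO, 1.06, 1.40 and 1.002 FPKM in WT, and 0.119, 0.291 and 0.406 FPKM in Sham. Sham lay below all other groups, which overlapped. Dusp14 rose in WT against Sham (0.76, SE 0.202, adjusted p = 0.00595) and in TNFR12_KO against Sham (1.09, SE 0.202, adjusted p = 0.00229). The call in RIPK1_D138N against Sham (0.58, SE 0.202, adjusted p = 0.0478) held in 3 of 13 alternatives, with an adjusted p of 0.0192 to 0.497 over them.

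**Figure D2:**
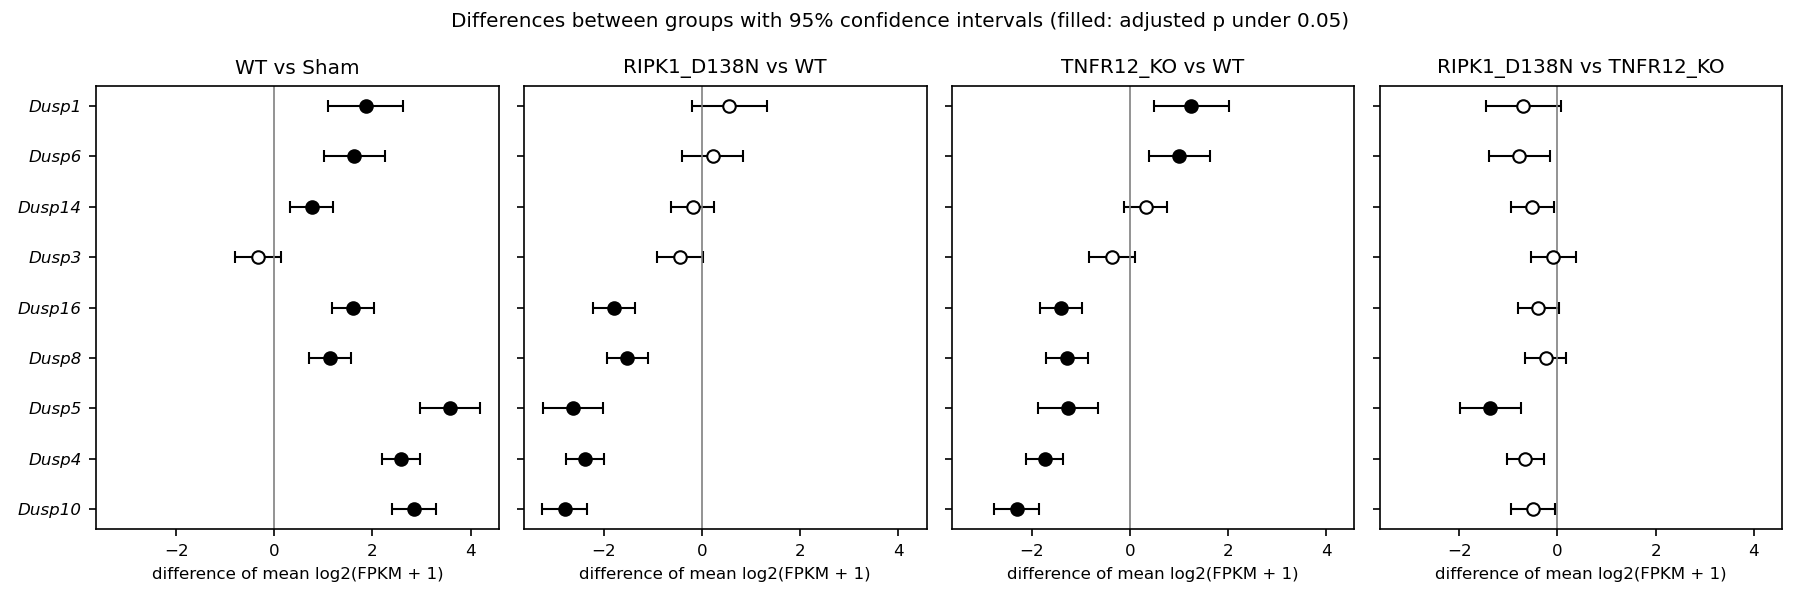
Differences of mean log2(FPKM + 1) for the 9 tested members (points, with 95% confidence intervals; filled where the adjusted p is under 0.05), with WT vs Sham in the first panel, each mutant vs WT in the next panels and the mutants against each other in the last. Dusp16, Dusp8, Dusp5, Dusp4 and Dusp10 lie right of 0 in WT vs Sham and left of 0 in both mutants against WT, while Dusp1 and Dusp6 lie right of 0 in TNFR12_KO vs WT.

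Counted over the members, the comparison of WT with Sham, which holds the genotype fixed, found 8 of the 9 tested members higher and 0 lower (limma, adjusted p under 0.05), and 8 passed an unadjusted p under 0.05. Of all 11728 tested genes, 16.4% were called higher and 41.9% lower. The median difference was 1.63 over the members and -0.36 over all tested genes, a median that median-of-ratios scaling moved to -0.03. With that scaling the split of all genes became 3168 higher and 3187 lower, in place of 1918 and 4913, and the 8 members were still called higher. The 3 WT libraries lay above the 3 Sham libraries with no overlap for 9 of 10 members, Dusp2 included. Of all tested genes, 17.98% lay higher and 45.5% lower in WT without overlap.

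RIPK1_D138N against WT, which asks how the kinase-dead genotype differed within the ischemia arm, gave 0 members higher and 5 lower, namely Dusp4, Dusp5, Dusp8, Dusp10 and Dusp16. The background was 29.8% of tested genes called higher and 21.9% lower, with a median of 0.11 over all genes and -1.52 over the members. Median-of-ratios scaling turned the balance of all genes, with 3125 higher and 3199 lower in place of 3500 and 2570, and the 5 members were still called lower. TNFR12_KO against WT called 2 members higher, Dusp1 and Dusp6, and 5 lower, against 29.6% and 17.5% of all tested genes (3466 higher and 2054 lower, or 2904 and 2970 with median-of-ratios scaling). Its median was -1.26 over the members and 0.14 over all genes. Both comparisons share the WT libraries, so their member values stand side by side above and are not independent of each other. Each of the 5 calls lower than WT held in every alternative run for either mutant, among them the fit without the Xist-positive libraries, in which RIPK1_D138N keeps 1 library that is assumed to vary like the other groups.

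Between the mutants all 9 tested members had a negative difference, RIPK1_D138N below TNFR12_KO, with a median of -0.52 against -0.05 over all tested genes. Only Dusp5 was called, against a background of 0.35% of genes called higher and 0.58% lower (41 and 68 genes, or 44 and 40 with median-of-ratios scaling), and 5 members passed an unadjusted p under 0.05 against 1444 of all tested genes. The libraries of the mutants did not overlap for 5 of the 10 members, all of them lower in RIPK1_D138N, and of all tested genes 11.9% lay lower and 5.24% higher there without overlap. Without RIPK1_D138N replicate 1, which was the highest of its group in Dusp4, Dusp5, Dusp6 and Dusp10, Dusp4 (adjusted p = 0.0146), Dusp6 (0.0470) and Dusp10 (0.0423) were called beside Dusp5, 4 members in all. That fit set RIPK1_D138N libraries with Xist at 20.1 and 23.4 FPKM against TNFR12_KO libraries with Xist at 0.0824 FPKM or less. Genotype and this difference in Xist cannot be told apart in it. Fits under the other alternatives called 0 members.

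Against Sham, where genotype and operation change together, RIPK1_D138N had 4 members higher (Dusp1, Dusp5, Dusp6 and Dusp14) and 1 lower (Dusp3), with a background of 7.51% called higher and 22.7% lower (881 and 2658 genes, or 1406 and 1236 with median-of-ratios scaling). TNFR12_KO had 5 higher (Dusp1, Dusp4, Dusp5, Dusp6 and Dusp14) and 1 lower (Dusp3), with 7.46% and 18.1% (875 and 2127 genes, or 1272 and 1096 with that scaling). The median over the members was 0.19 in RIPK1_D138N and 0.84 in TNFR12_KO. In RIPK1_D138N the calls of Dusp1 and Dusp6 held in all 14 alternatives, that of Dusp3 in 10 of 14 and that of Dusp5 in 6 of 13. In TNFR12_KO the call of Dusp3 held in 5 of 13.

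The make-up of the phosphatase transcripts differed between the groups. The FPKM of all 10 members summed to 119 ± 2.16 in RIPK1_D138N, 201 ± 56.5 in TNFR12_KO, 141 ± 20.6 in WT and 40.8 ± 9.79 in Sham (mean ± SD, n = 3 each). Dusp1 and Dusp6 together made up 87.2 ± 0.99% of that sum in RIPK1_D138N, 87.6 ± 2.30% in TNFR12_KO, 53.3 ± 1.06% in WT and 52.0 ± 9.37% in Sham. Dusp4, Dusp5, Dusp8, Dusp10 and Dusp16 made up 6.64 ± 1.497% in RIPK1_D138N, 7.75 ± 1.29% in TNFR12_KO, 39.5 ± 0.458% in WT and 19.0 ± 1.96% in Sham. In the mutant livers the phosphatase message was mostly that of Dusp1 and Dusp6, and in WT a mixture. These shares follow from the levels above and were not tested.

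By role, the enzymes that prefer JNK and p38 held 4.92 ± 0.683% of the summed FPKM in RIPK1_D138N, 4.46 ± 1.03% in TNFR12_KO, 24.6 ± 2.10% in WT and 17.3 ± 2.18% in Sham. In Sham it was Dusp16 that carried most of that class, at 11.9 ± 0.922% of the sum, and Dusp5 held 0.360 ± 0.0931%. The atypical pair held 5.71 ± 0.644%, 4.20 ± 1.04%, 6.93 ± 1.38% and 28.7 ± 9.05% in RIPK1_D138N, TNFR12_KO, WT and Sham, nearly all of it Dusp3. Within RIPK1_D138N the sum of Dusp1 and Dusp6 stayed between 103.1 and 105.2 FPKM, although replicate 1 had the lowest Dusp1 and the highest Dusp6.

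**Figure D3:**
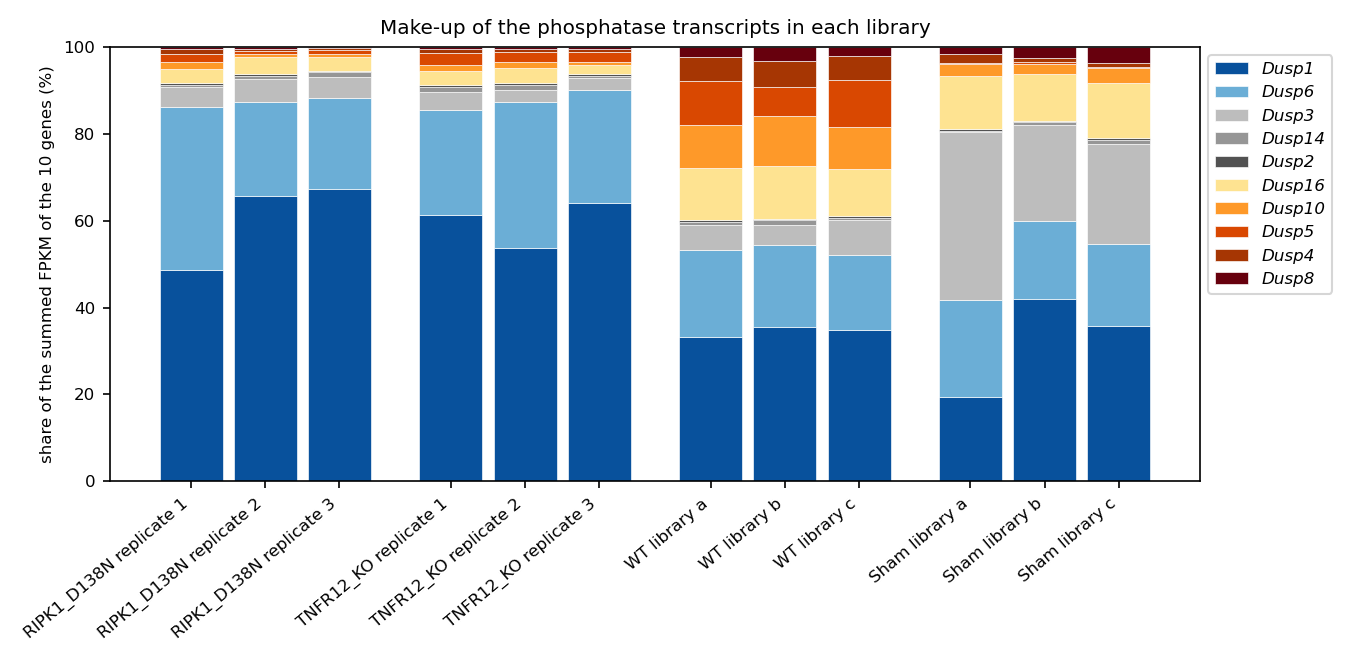
Share of each gene in the summed FPKM of the 10 phosphatase genes (y axis, percent) in each of the 12 libraries, RIPK1_D138N and TNFR12_KO left of WT and Sham. Dusp1 and Dusp6 (blue) fill 85.4 to 90.0% of the bars in the mutants and 52.2 to 54.3% in WT, where the 5 genes in yellow to dark red fill 39.0 to 39.9%.

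FPKM is a level per length, so members can be ordered within a group. Dusp1 had the highest mean in every group. In RIPK1_D138N the order ran Dusp1, Dusp6, Dusp3, Dusp16, Dusp5, Dusp10, Dusp14, Dusp4, Dusp8 and Dusp2, and in the last 6 of these each range overlapped with the next. In TNFR12_KO it ran Dusp1, Dusp6, Dusp3, Dusp16, Dusp5, Dusp10, Dusp14, Dusp4, Dusp2 and Dusp8, with 5 of 9 neighbouring pairs overlapping. In WT, Dusp16, Dusp10, Dusp5, Dusp3 and Dusp4 followed Dusp1 and Dusp6 with overlapping ranges, and then came Dusp8, Dusp14 and Dusp2 without overlap. In Sham the order was Dusp1 and Dusp3, which overlapped, then Dusp6 and Dusp16, and then 6 genes whose neighbouring ranges overlapped. The Sham range of Dusp1, 5.90 to 20.9 FPKM, also held that of Dusp6, 6.72 to 8.88 FPKM.

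Likeness was measured as the mean absolute difference between profiles of log2(FPKM + 1) over the 12 libraries, each centred on its own mean, for the 5 members whose group means spanned at least 2. It is a description, and the libraries of a group share what sets that group apart. Nearest to Dusp1 were Nr4a1, an immediate early nuclear receptor (0.38), Dusp6 itself (0.39) and Nfkbiz, a nuclear inhibitor-like protein of the NF-κB system (0.39). Nearest to Dusp6 were Ier2, an immediate early gene (0.22), Trp53inp1, a p53-induced gene (0.24), and Nfkbia, the NF-κB inhibitor IκBα (0.24). Dusp1 stood at rank 10 for Dusp6.

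For Dusp4 the nearest were Relb, an NF-κB subunit (0.21), Klf16, a zinc finger factor (0.22), and Slc12a4, a potassium-chloride cotransporter (0.22), with Dusp10 at rank 8 (0.24). Relb averaged 0.823 FPKM in RIPK1_D138N, 1.37 in TNFR12_KO, 6.40 in WT and 0.421 in Sham. For Dusp10 they were Tubb6, a tubulin (0.16), Col12a1, a collagen (0.17), and Btc, the EGF receptor ligand betacellulin (0.19), with Dusp4 at rank 7. For Dusp5 they were Krt8, a keratin (0.29), Sox9, a transcription factor of bile duct cells (0.33), and Krt8-ps, a pseudogene that can share fragments with Krt8 (0.33). Like Dusp5, Krt8 was ordered WT, TNFR12_KO, RIPK1_D138N and Sham, at 165 FPKM in RIPK1_D138N, 346 in TNFR12_KO, 1067 in WT and 93.8 in Sham.

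The counts for the lists and markers below stand against the shares of all tested genes. These were 16.4% higher and 41.9% lower in WT against Sham, and 29.8% and 21.9% in RIPK1_D138N against WT. In TNFR12_KO against WT they were 29.6% and 17.5%. Counts near these shares say little about a list. Of 12 other dual-specificity phosphatase genes, 8 were tested. In WT against Sham 0 were higher and 5 lower, with a median of -0.76, though 2 were higher and 2 lower under median-of-ratios scaling. RIPK1_D138N against WT called 5 higher and 0 lower, and TNFR12_KO against WT 4 higher and 1 lower. Under median-of-ratios scaling these became 4 higher and 0 lower, without Dusp22, and 2 higher and 1 lower, without Dusp12 and Dusp22. Dusp23 averaged 8.77 ± 1.24 FPKM in RIPK1_D138N and 7.33 ± 1.18 FPKM in TNFR12_KO, against 3.80 ± 0.430 FPKM in WT (differences 1.02, SE 0.223, adjusted p = 0.00204, and 0.79, SE 0.223, adjusted p = 0.0109). The 1 lower call was Dusp7, a cytosolic ERK phosphatase close to Dusp6, which fell in TNFR12_KO to 0.549 ± 0.101 FPKM, against 1.47 ± 0.0953 FPKM in WT (-0.67, SE 0.130, adjusted p = 0.001).

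Upstream, the kinases were mixed. Of 10 tested MAP kinases, 4 were higher and 3 lower in WT against Sham, where 16.4% and 41.9% of all tested genes were. The 3 lower calls were lost under median-of-ratios scaling and after quantile normalization. RIPK1_D138N against WT called 0 higher and 3 lower, and TNFR12_KO against WT 1 higher and 2 lower, or 0 and 3 under either of those scalings. Mapk7, which encodes ERK5, averaged 0.302 ± 0.0994 FPKM in RIPK1_D138N, 0.311 ± 0.198 FPKM in TNFR12_KO, 2.45 ± 0.677 FPKM in WT and 0.211 ± 0.0994 FPKM in Sham. Only the WT libraries brought Mapk7 past the filter, so its place in these counts depends on the group in which it was high. Mapk6, the atypical kinase ERK3, fell in RIPK1_D138N by 1.70 (SE 0.197, adjusted p = 1.71e-05) and in TNFR12_KO by 0.56 (SE 0.197, adjusted p = 0.0323).

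Among 14 tested MAP3 kinases, the entry level of the cascade, 6 were higher and 4 lower in WT against Sham. RIPK1_D138N against WT gave 0 higher and 6 lower, or 0 and 9 under median-of-ratios scaling. TNFR12_KO against WT gave 2 higher and 3 lower, or 0 and 6 under that scaling. Map3k6, a relative of the stress kinase ASK1, averaged 0.800 ± 0.591 FPKM in RIPK1_D138N, 0.948 ± 0.0822 FPKM in TNFR12_KO and 9.76 ± 1.76 FPKM in WT (-2.61, SE 0.245, adjusted p = 3.75e-06, and -2.45, SE 0.245, adjusted p = 6.65e-06). Map3k1, which encodes the JNK pathway kinase MEKK1, fell in RIPK1_D138N (-2.19, SE 0.209, adjusted p = 4.05e-06) and in TNFR12_KO (-2.15, SE 0.209, adjusted p = 5.59e-06) against WT. Of the 7 MAP2 kinases, 1 was higher and 2 lower in WT against Sham, and the lower calls were lost under both scalings. RIPK1_D138N against WT called 2 higher and 3 lower. TNFR12_KO against WT called 3 higher and 1 lower, or 2 and 3 under either of those scalings. Map2k1, the ERK activator MEK1, rose in WT against Sham (0.74, SE 0.169, adjusted p = 0.00226) and fell in RIPK1_D138N (-0.94, SE 0.169, adjusted p = 0.000505) and TNFR12_KO (-0.82, SE 0.169, adjusted p = 0.00157) against WT. The p38 activator gene Map2k6 rose in both mutants, to 4.82 ± 1.73 FPKM in RIPK1_D138N and 2.77 ± 0.379 FPKM in TNFR12_KO, against 1.02 ± 0.563 FPKM in WT (adjusted p = 0.00022 and 0.00689).

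The other feedback inhibitors of ERK signaling, the Sprouty and Spred genes, rose in WT against Sham in 5 of 5 tested cases, 4 after quantile normalization, which lost Spry1 (adjusted p = 0.0521). Spry2 averaged 2.51 ± 0.892 FPKM in WT against 0.351 ± 0.150 FPKM in Sham (1.35, SE 0.205, adjusted p = 0.000109). RIPK1_D138N against WT called 3 lower (Spry2, Spred1 and Spred2) and 0 higher, and TNFR12_KO against WT called 0 lower and 1 higher, Spry4, at 2.74 ± 0.737 FPKM against 1.61 ± 0.147 FPKM in WT (0.50, SE 0.181, adjusted p = 0.0372), a call lost under median-of-ratios scaling. Phosphatases of other families that act on MAP kinases gave 1 higher and 3 lower of 5 in WT against Sham, 1 higher and 1 lower in RIPK1_D138N against WT, and 2 higher and 1 lower in TNFR12_KO against WT. The lower calls against Sham were lost under both scalings, and the higher calls in TNFR12_KO after quantile normalization. Ppp2cb, a catalytic subunit of phosphatase 2A, stood at 10.6 ± 1.28 FPKM in RIPK1_D138N and 10.7 ± 2.10 FPKM in TNFR12_KO, against 36.0 ± 4.97 FPKM in WT (adjusted p = 1.12e-05 and 1.30e-05).

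Downstream, 5 of 8 tested MAP kinase-activated kinases were higher in WT than in Sham and 0 lower. RIPK1_D138N against WT gave 0 higher and 3 lower, and TNFR12_KO against WT 1 higher and 2 lower. Rps6ka4, the nuclear kinase MSK2, averaged 1.72 ± 0.360 FPKM in RIPK1_D138N, 1.99 ± 0.301 FPKM in TNFR12_KO and 7.26 ± 0.846 FPKM in WT (-1.60, SE 0.155, adjusted p = 4.45e-06, and -1.47, SE 0.155, adjusted p = 1.01e-05). Genes known to respond to ERK, which share Spry2 and Spry4 with the feedback inhibitors, gave 8 higher and 1 lower of 9 in WT against Sham, 1 higher and 6 lower in RIPK1_D138N against WT, and 2 higher and 4 lower in TNFR12_KO against WT. Ier3, an early survival gene, averaged 19.8 ± 13.8 FPKM in RIPK1_D138N, 23.1 ± 7.71 FPKM in TNFR12_KO and 105 ± 28.7 FPKM in WT (-2.51, SE 0.381, adjusted p = 0.000144, and -2.15, SE 0.381, adjusted p = 0.000527). Fosl1, the AP-1 subunit FRA1, averaged 0.739 ± 0.825 FPKM in RIPK1_D138N, 1.19 ± 1.02 FPKM in TNFR12_KO and 9.25 ± 3.37 FPKM in WT. Ccnd1, cyclin D1, ran the other way, at 11.2 ± 6.33 FPKM in RIPK1_D138N and 8.20 ± 1.42 FPKM in TNFR12_KO, against 0.899 ± 0.457 FPKM in WT (2.53, SE 0.358, adjusted p = 8.33e-05, and 2.29, SE 0.358, adjusted p = 0.000204).

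**Figure D4:**
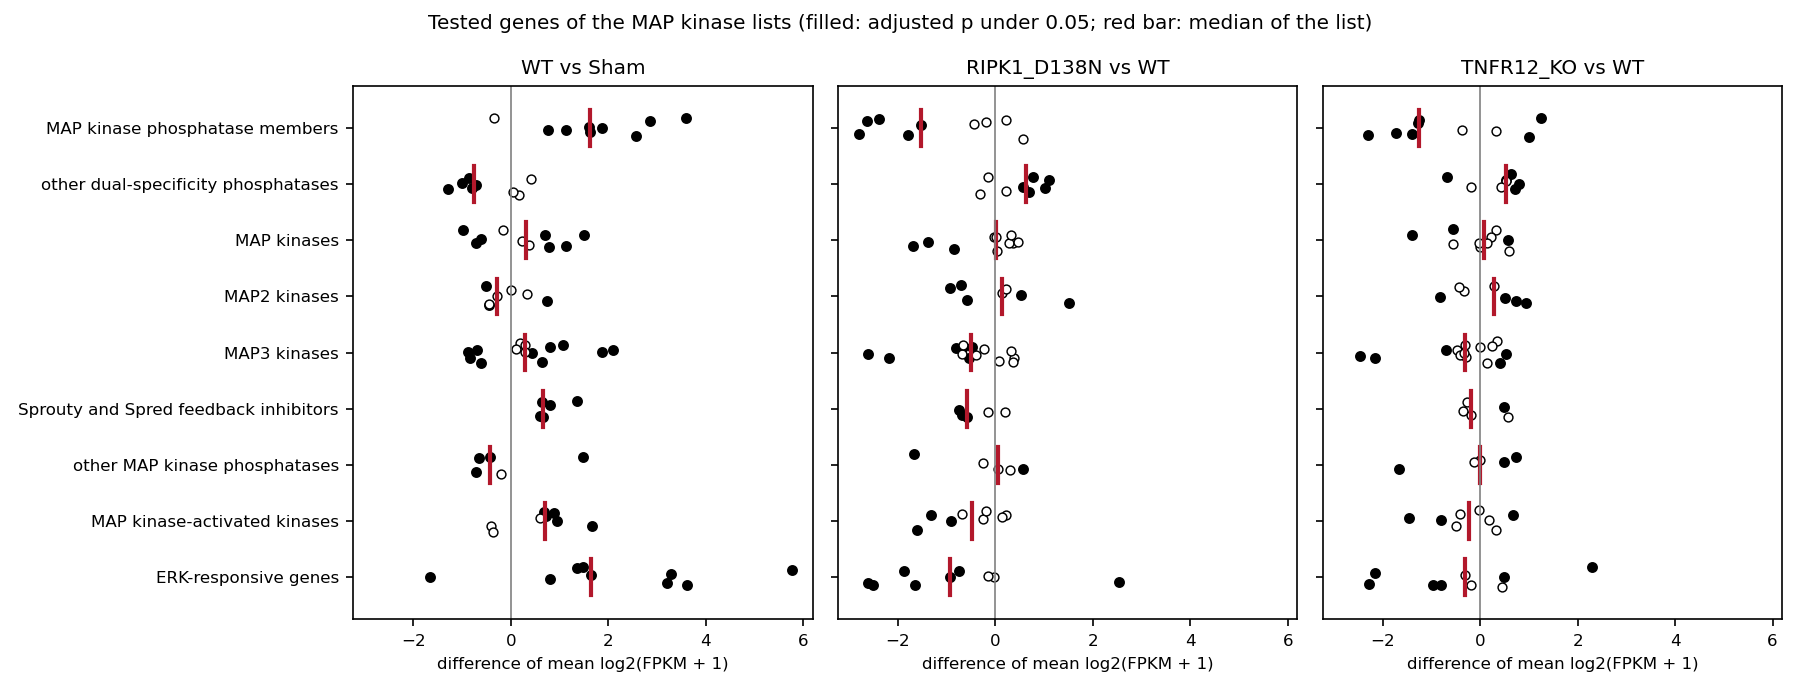
Differences of mean log2(FPKM + 1) for every tested gene of the MAP kinase lists, in panels for WT vs Sham and for each mutant vs WT (filled where the adjusted p is under 0.05; red bars are list medians). The 9 tested phosphatase members have a median of 1.63 in WT vs Sham and -1.52 and -1.26 in the mutants against WT, and the other dual-specificity phosphatases a median of -0.76, 0.62 and 0.53.

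Markers of the cells that make up the tissue moved with the groups. In bulk RNA, fewer cells of a type and less RNA per cell cannot be told apart. The 8 hepatocyte markers summed to 9613 to 11984 FPKM in RIPK1_D138N, 9242 to 11455 FPKM in TNFR12_KO, 2203 to 3915 FPKM in WT and 11367 to 13396 FPKM in Sham. All 8 were lower in WT than in Sham and all 8 higher in each mutant than in WT, the reverse of Dusp4, Dusp5, Dusp8, Dusp10 and Dusp16. After quantile normalization Ttr, Asgr1 and Serpinc1 no longer passed in WT against Sham, nor Asgr1 in either mutant against WT. Alb and Apoe were listed at 0 in every library and were not in that list.

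The 10 Kupffer cell and macrophage markers summed to 24.4 to 31.2 FPKM in RIPK1_D138N, 13.1 to 20.4 FPKM in TNFR12_KO, 37.1 to 48.6 FPKM in WT and 88.0 to 133.2 FPKM in Sham, with 6 of 8 tested lower in WT than in Sham, of which C1qb was lost under either other scaling. Against WT, 3 of the 8 were called lower in RIPK1_D138N and 6 in TNFR12_KO, with 0 higher in either. Neutrophil markers, 0 of 4 tested called between WT and Sham or between either mutant and WT, ranged over 4.54 to 181 FPKM in RIPK1_D138N, 12.2 to 158 FPKM in TNFR12_KO, 5.02 to 262 FPKM in WT and 38.7 to 83.1 FPKM in Sham. Lymphocyte markers summed to at most 3.50 FPKM in any library, with Ncr1 at 0 in all WT libraries, beside the low level of Dusp2 and Dusp14. Only 1 of these markers was tested, and it was called higher in RIPK1_D138N against WT and in no other comparison. Stellate cell markers summed to 158.8 to 187.7 FPKM in RIPK1_D138N, 65.6 to 105.9 FPKM in TNFR12_KO, 109.6 to 135.4 FPKM in WT and 73.1 to 102.9 FPKM in Sham, with 3 of 8 called higher and 1 called lower in the comparison of WT with Sham. RIPK1_D138N against WT called 4 of them higher and 1 lower, and TNFR12_KO against WT 1 higher and 3 lower. Endothelial markers summed to 19.3 to 103.4 FPKM in RIPK1_D138N, 10.5 to 53.7 FPKM in TNFR12_KO, 24.8 to 30.0 FPKM in WT and 30.4 to 50.8 FPKM in Sham, and their genes moved in opposite directions (those named here were chosen after their values were seen). Of 8 tested, 2 were called higher and 2 lower in WT against Sham. Against WT, 3 were higher and 2 lower in RIPK1_D138N, and 1 higher and 2 lower in TNFR12_KO. Pecam1 and Cdh5, genes of endothelial cell junctions, rose in WT against Sham (1.22 and 1.57, adjusted p = 0.00123 and 0.00105) and fell against WT in RIPK1_D138N (-0.68 and -0.88, adjusted p = 0.0391 and 0.0356) and in TNFR12_KO (-1.58 and -1.01, adjusted p = 0.000257 and 0.0201), the directions of Dusp4, Dusp5, Dusp8, Dusp10 and Dusp16. Clec4g, a sinusoidal lectin, fell in WT against Sham (-3.38, adjusted p = 0.000772) and rose against WT in RIPK1_D138N (3.68, adjusted p = 0.000511) and TNFR12_KO (2.53, adjusted p = 0.00704). Kdr, the VEGF receptor, fell in WT against Sham (-1.27, adjusted p = 0.0487), a call lost under either other scaling, and rose in RIPK1_D138N against WT (1.65, adjusted p = 0.0164), as did Oit3 (1.68, adjusted p = 0.0285). The part of cell composition in the levels of the phosphatase genes was not tested.

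Genes annotated on the other strand overlap Dusp1, Dusp3, Dusp5, Dusp8, Dusp10 and Dusp16, and whether counting used strand is not stated in any source used here, so fragments of such pairs cannot be told apart. Ergic1 reached 16.6 FPKM and overlaps Dusp1 only beyond the end printed above, in an M21 model that runs on to base 26562128. The partner of Dusp10, 1700056E22Rik, reached 3.32 FPKM at most, and that of Dusp3, Gm20659, 8.48 FPKM. For Dusp16 the partner Gm36328 reached 0.135 FPKM, and the partner of Dusp8, Gm32786, was listed at 0. Dusp2, Dusp4, Dusp6 and Dusp14 have no overlapping gene in the annotation.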

How the data were processed

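The authors deposited FPKM values in 1 table for all 12 libraries, per the file headers. Per the submitters' processing notes, STAR 2.5.4a, Cufflinks 2.2.1 and Cuffdiff were used with mm10. Mutant columns carry replicate numbers. WT and Sham columns could be matched to a group only, and their letters a to c have no order. Gene coordinates are those of GENCODE M21 (GRCm38), except the end of Dusp1, which is that in the deposited table.

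A value per gene and library, log2(FPKM + 1), entered limma 3.58.1 under R 4.3.3. A single fit gave the 4 group means from all 12 libraries, with the prior variance allowed to follow the mean level. Genes reaching 1 FPKM in 3 or more libraries, 11728 in all, were tested, and p-values were adjusted by Benjamini-Hochberg over all of them within each of 6 comparisons, with calls at an adjusted p under 0.05. Differences on this scale understate changes of low genes. Shares were computed on FPKM, and ratios are ratios of mean FPKM. The fit was tested on simulated data with known changes. Fragments behind low values were estimated from the steps between FPKM values of 92 genes with a single transcript. The members, the lists and the markers were chosen with earlier results of these data known. All members are described. From the other lists, genes that passed in WT vs Sham or in a mutant against WT were named, at most the 3 largest changes per list and comparison, with counts for the whole list. Exceptions are the endothelial markers, the hepatocyte markers whose calls were lost under another scaling, and Ncr1. Alternatives changed the pseudocount, the filter, the scaling, the libraries entering the fit and each replicate in turn. Counts of the other lists under the other scalings were added after seeing the data.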

Additional observations from a re-analysis of the deposited data

How the results depend on the processing

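Each member's difference was recomputed under the alternatives, which gave 732 values, of which 663 kept their direction and their side of the threshold. The number of members called stayed at 8 to 9 in WT vs Sham, 5 to 6 in RIPK1_D138N vs WT and TNFR12_KO vs Sham, and 6 to 8 in TNFR12_KO vs WT when 1 library was left out. RIPK1_D138N vs TNFR12_KO, with 1 called, gave 0 to 4 with 1 library left out and 0 with a pseudocount of 0.1 or 5, no filter, a filter of 0.1 FPKM, either other scaling, the libraries of the compared groups only, or without the Xist-positive libraries. RIPK1_D138N vs Sham, with 5 called, gave 3 with a pseudocount of 5, with no filter, with the compared groups only (where fewer members were tested) and without the Xist-positive libraries, 2 after quantile normalization, and 2 to 4 with 1 library left out. Signs turned for members that were not called: Dusp3 in WT vs Sham (0.0641 under median-of-ratios scaling, 0.117 after quantile normalization), Dusp1 in RIPK1_D138N vs WT (-0.32, quantile), Dusp6 there (-0.35, quantile, and -0.0491 to 0.380 with 1 library left out), Dusp16 in RIPK1_D138N vs Sham (0.0637, median-of-ratios, and 0.0393, quantile), Dusp10 there (-0.19 to 0.171 with 1 library left out) and Dusp8 in TNFR12_KO vs Sham (-0.379 to 0.0160 with 1 library left out). The cause was not tested.

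The mutants' replicate numbers did not pair the libraries (correlations of same-numbered deviations -0.10, -0.20 and 0.06). With the replicate as a block, 0 members and 16 genes were called between the mutants, and Dusp5 stood at -1.37 (adjusted p = 0.262). For comparisons with WT or Sham no paired analysis was possible because their columns carry no usable number. Low depth limits Dusp2, Dusp5 and Dusp14 in Sham most.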
